A study of Homo sapiens with 4 samples.

Results

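Transcripts of 5 ATG8 genes and 5 autophagy cargo receptors were followed in HepG2 cells, an established human liver cancer line that the labels call hepatoblastoma. The 10 genes were taken by symbol: MAP1LC3A, MAP1LC3B, GABARAP, GABARAPL1 and GABARAPL2 for the ATG8 family, and SQSTM1, NBR1, OPTN, TAX1BP1 and CALCOCO2 for the receptors. All 10 had a row among the 30863 genes of the deposited table. Wild-type cells received the solvent DMSO or AMF (amentoflavone, a plant biflavonoid) for 48 h, with 2 poly(A) RNA libraries per group. The labels disagree on the agent, since 90 µM AMF stands in the treatment protocol and 80 µM Tub B in the design text. AMF is therefore used here as the name of the treated group, and its dose is uncertain. Nothing in the labels says that the libraries came from separate cultures, so the p-values rest on a spread among libraries that may be technical only.

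ATG8 proteins are small ubiquitin-like proteins that are joined to a lipid of the growing autophagosome membrane. They fall into the LC3 and the GABARAP subfamilies, and the ATG4 proteases prepare them for this step and later free them from the outer membrane. Cargo receptors bind ubiquitin-marked cargo with one end and ATG8 proteins with the other, and so bring protein aggregates, damaged mitochondria or bacteria into the autophagosome. In liver, the receptor p62, the product of SQSTM1, is also known for holding KEAP1 away from the transcription factor NRF2. Because ATG8 and receptor proteins are themselves degraded in autophagy, transcript levels do not show the amount of protein or the rate of degradation.

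Reads counted in genes ranged from 24226586 to 26966210 per library, and mitochondrially encoded genes took 7.69% to 7.73% of them in DMSO and 9.53% to 9.61% in AMF. Of 13 hepatocyte markers, 11 averaged 100 normalized counts or more and none was at 0, with APOB highest at 172214. Their summed level was 524111 to 543114 in DMSO and 401694 to 421819 in AMF. At a limma adjusted p under 0.05, 7 of the 13 were lower and 3 higher in AMF. Among all tested genes averaging 100 normalized counts or more, 31.1% were lower and 23.6% higher. Summed fibroblast markers (7 genes) came to 196 to 214 in DMSO and 26.8 to 37.1 in AMF, and summed endothelial markers (5 genes) to 159 to 188 and 292 to 320. PECAM1, with a mean of 223.9, was the only endothelial marker to reach 100. No fibroblast marker reached 100, and PDGFRB was highest at 60.3. The sum of 6 immune markers, 24813 to 25455 in DMSO and 17598 to 18527 in AMF, was nearly all LYZ, with a mean of 21407.5. The defining leukocyte gene PTPRC and the endothelial CLEC14A were not analysed here. The part of these shifts in the results below was not tested. The cells are a single line, and in bulk RNA a change in some cells and a change in all of them cannot be told apart.

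The coding sequences of the ATG8 genes bear on how their reads can be told apart. In GENCODE release 29, the principal coding sequences were 366 bases long for MAP1LC3A, 378 for MAP1LC3B and 354 for each of GABARAP, GABARAPL1 and GABARAPL2. Identity in aligned coding bases was 73.2% between MAP1LC3A and MAP1LC3B and 76.8% between GABARAP and GABARAPL1. GABARAPL2 shared 64.1% with GABARAP and 62.2% with GABARAPL1, while identity between the LC3 and the GABARAP genes among the 5 members ran from 55.5% to 62.0%. The paralog MAP1LC3B2 was identical to MAP1LC3B at 376 of 378 coding bases. The final 90 coding bases of this pair (positions 289 to 378 from the start codon) are shown because a single base is all that tells the pair apart in this run. Capitals mark the base that differs.
MAP1LC3B: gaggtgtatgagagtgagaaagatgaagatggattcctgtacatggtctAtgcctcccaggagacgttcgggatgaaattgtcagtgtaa
MAP1LC3B2: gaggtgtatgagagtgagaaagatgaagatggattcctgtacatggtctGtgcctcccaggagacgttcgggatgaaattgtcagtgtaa
Over all annotated transcripts, 4.82% of the distinct 50-base words of MAP1LC3B also occurred in MAP1LC3B2, which held 7 reads in the DMSO pair and 19 in the AMF pair. Reads of the pair may be split in an uncertain way. Among the other members, 0.734% of the words of GABARAPL1 occurred in other genes (all in its near copy GABARAPL3) and 28.3% of those of GABARAP, with 1.08% or less for the rest. Words were compared in the direction of each transcript only, so bases shared with genes on the opposite strand are not in these values.

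Of the 10 members, 5 rose in AMF (MAP1LC3B, GABARAPL1, SQSTM1, TAX1BP1 and OPTN), 0 fell and 5 did not pass (limma on log2(normalized count + 1), Benjamini-Hochberg adjusted p under 0.05 over 23828 genes tested). All 10 had the mean of at least 1 normalized count needed for the test. Normalized counts are reads divided by a size factor per library, a change is the AMF minus the DMSO mean of log2(normalized count + 1), and values are mean ± SD (n = 2). Over all genes tested, 15.6% were higher and 16.2% lower, so that 31.8% passed in either direction. At an unadjusted p under 0.05, the 5 risers and 1 falling member (GABARAP) passed, and a fit with voom on whole reads also called 5 higher and 0 lower. The median change of the members was 0.29, and that of all genes tested 0.04. Both AMF libraries lay above both DMSO libraries for 7 members and below for 3, where 63.4% of all tested genes had groups that did not overlap (33.8% above, 29.7% below). Of the 8 members whose mean reached 100 normalized counts, 5 rose, and of the 11137 tested genes at that level 23.6% were higher and 31.1% lower. Without AMF replicate 1 or 2, limma called 0 of all tested genes, with 6575 and 6387 at an unadjusted p under 0.05 and, by voom, 667 higher and 712 lower called in the former case and 636 and 679 in the latter.

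**Figure D1:**
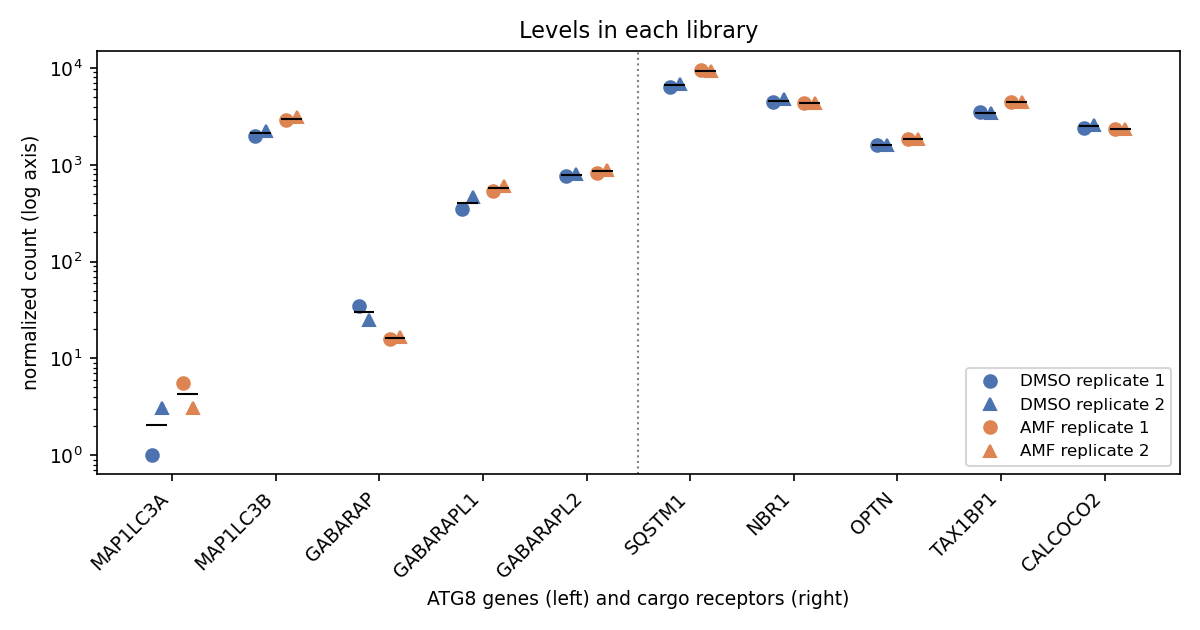
Normalized counts of the 10 genes in each library (log axis), with DMSO in blue, AMF in orange, circles for replicate 1, triangles for replicate 2 and bars for the group means. SQSTM1 stands highest, with its AMF libraries at 9531 and 9279, and MAP1LC3A lowest, with no library above 5.57.

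Promoter sequence was read from RefSeq (GRCh38.p14, another build than the hg19 of the counts), where 9 of the 10 members (all but MAP1LC3A) were matched, with 14 starts in all. Both strands of the 250 bases before each start were searched for 6 motifs of factors that act on autophagy or foreign-compound genes. The antioxidant response element TGACNNNGC, bound by NRF2, lay in 10.9% of all 35116 promoters and in those of MAP1LC3B (bases 46 to 38 before the start) and CALCOCO2 (129 to 121). The cyclic AMP response element TGACGTCA lay in 1.65% of all promoters and in that of GABARAPL1 (30 to 23 before the start). The FOXO motif GTAAACA (2.98% of all) occurred in CALCOCO2, overlapping no other motif. The aryl hydrocarbon response element TNGCGTG (4.52% of all) occurred in GABARAP, GABARAPL2 and 1 of 2 NBR1 starts. The E-box CACGTG (6.35% of all), bound by TFEB, and the ATF4-type element TGATGNAA (3.14% of all) occurred in 0 of the 14. None of the 6 motifs lay in the 250 bases before the 3 SQSTM1 starts, the 2 TAX1BP1 starts or the 2 OPTN starts. Bases further upstream were not searched, and the windows of the 2 OPTN starts overlap. The 250 bases are shown for MAP1LC3B, GABARAPL1 and the most downstream SQSTM1 start, which rose to similar degrees, and for CALCOCO2, which has the same element as MAP1LC3B and did not pass. Capitals mark motif matches, which are descriptions of letters and not sites of binding.
MAP1LC3B, chr16:87392086-87392335, plus strand: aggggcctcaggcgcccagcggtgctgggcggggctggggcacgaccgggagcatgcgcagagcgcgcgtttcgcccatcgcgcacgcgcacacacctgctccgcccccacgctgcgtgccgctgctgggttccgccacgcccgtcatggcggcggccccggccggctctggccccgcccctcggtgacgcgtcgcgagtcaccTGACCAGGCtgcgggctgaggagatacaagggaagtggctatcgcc
GABARAPL1, chr12:10212627-10212876, plus strand: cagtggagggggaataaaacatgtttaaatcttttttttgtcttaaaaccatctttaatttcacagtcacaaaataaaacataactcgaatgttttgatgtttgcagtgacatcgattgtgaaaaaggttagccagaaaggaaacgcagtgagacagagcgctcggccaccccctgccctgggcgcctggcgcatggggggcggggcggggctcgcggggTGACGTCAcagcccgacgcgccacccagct
SQSTM1, chr5:179820655-179820904, plus strand: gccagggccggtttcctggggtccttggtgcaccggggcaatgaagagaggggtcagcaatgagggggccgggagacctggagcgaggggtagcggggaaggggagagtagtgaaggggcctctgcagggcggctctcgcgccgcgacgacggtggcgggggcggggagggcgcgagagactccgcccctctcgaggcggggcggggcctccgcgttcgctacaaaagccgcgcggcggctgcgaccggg
CALCOCO2, chr17:48830785-48831034, plus strand: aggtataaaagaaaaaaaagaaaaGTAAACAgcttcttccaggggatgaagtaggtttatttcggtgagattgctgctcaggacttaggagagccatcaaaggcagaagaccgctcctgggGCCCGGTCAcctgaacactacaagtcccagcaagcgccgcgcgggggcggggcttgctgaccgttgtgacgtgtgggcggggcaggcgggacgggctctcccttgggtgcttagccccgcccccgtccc
Of the 2 members with TGACNNNGC, MAP1LC3B rose by 0.50 (log2) and CALCOCO2, at -0.11, did not pass.

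Of the LC3 subfamily, MAP1LC3B carried nearly all reads and rose. It encodes LC3B, the protein whose lipid-bound form is the usual marker of autophagosomes. Its level was 1965 and 2255 normalized counts in DMSO and 2879 and 3079 in AMF. Both AMF libraries lay above both DMSO libraries, with a wider gap between the groups than within either. The mean went from 2109.9 ± 205 to 2979 ± 142, a log2 change of 0.50 (SE 0.0652, limma adjusted p = 3.17e-05), or 41.4% more. Without AMF replicate 1 or 2 the limma call ended (changes 0.55 and 0.45, adjusted p = 0.177 and 0.213), as it did with voom (adjusted p = 0.0831 and 0.105). In MAP1LC3B, 2.82% of exon bases overlap those of FBXO31 on the opposite strand. FBXO31 went the other way, from 3051 ± 98.4 to 2469 ± 53.3.

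MAP1LC3A, the other LC3 member, was close to the limit of detection in this line. It had 1 and 3 reads in DMSO and 6 and 3 in AMF, where a floor of 3 reads per library equals 2.79 to 3.09 normalized counts. The nearest libraries of the groups each held 3 reads, so the groups are apart only through the size factors. The ratio of AMF to DMSO reads was 2.17, with an exact 95% interval of 0.606 to 9.64 that covers counting error only, and the test did not pass (limma adjusted p = 0.436). The paralog MAP1LC3B2 had 3.0 and 4.11 normalized counts in DMSO and 8.36 and 10.3 in AMF (ratio of reads 2.62, 95% interval 1.05 to 7.37, limma adjusted p = 0.152). The remaining ATG8 genes of the list, MAP1LC3C and GABARAPL3, were not analysed here.

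In the GABARAP subfamily 1 of 3 members rose and 2 did not pass, and differences between members were not tested. GABARAPL1, a gene long known to be raised by starvation and FOXO factors, had 346 and 466 normalized counts in DMSO and 536 and 602 in AMF. The groups did not overlap, but the DMSO libraries were themselves 0.43 apart on the log2 scale, close to the size of the change. GABARAPL1 rose by 0.50 (SE 0.121, limma adjusted p = 0.00528), from 406 ± 85.0 to 569 ± 46.5. Without DMSO replicate 1 its change was 0.28 and the call ended (limma adjusted p = 0.174, voom 0.0553). Without AMF replicate 1 or 2 it also ended (changes 0.58 and 0.42, limma adjusted p = 0.321 and 0.435; voom 0.193 and 0.291). In GABARAPL1, 8.05% of exon bases overlap the antisense gene AC115676.1, whose reads cannot be told apart here.

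GABARAPL2, which encodes the ATG8 protein also called GATE-16 and acts in membrane fusion at the Golgi as well, had the smallest difference of this family. It stood at 771 and 801 normalized counts in DMSO and at 817 and 893 in AMF. The AMF libraries were both higher, yet the gap within AMF exceeded the gap between the groups. The log2 change was 0.12 (95% interval -0.04 to 0.28, limma adjusted p = 0.247). It was 0.18 without AMF replicate 1 and 0.06 without AMF replicate 2.

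GABARAP, the founding member, first described as a partner of the GABA-A receptor, had few reads: 35 and 24 in DMSO and 17 and 16 in AMF. Both AMF libraries lay below both DMSO libraries. The ratio of reads was 0.539 (exact 95% interval 0.341 to 0.840, counting error only), and the log2 change of -0.83 did not pass (SE 0.364, p = 0.0397, limma adjusted p = 0.105). Of its exon bases in GENCODE release 29, 55.7% lie in other genes: 30.5% in AC120057.2 on the same strand and 25.2% in AC120057.3 on the opposite strand. Neither neighbour was analysed here. Whether reads shared with them were dropped in counting, and so the part of this overlap in the low level, was not tested.

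**Figure D2:**
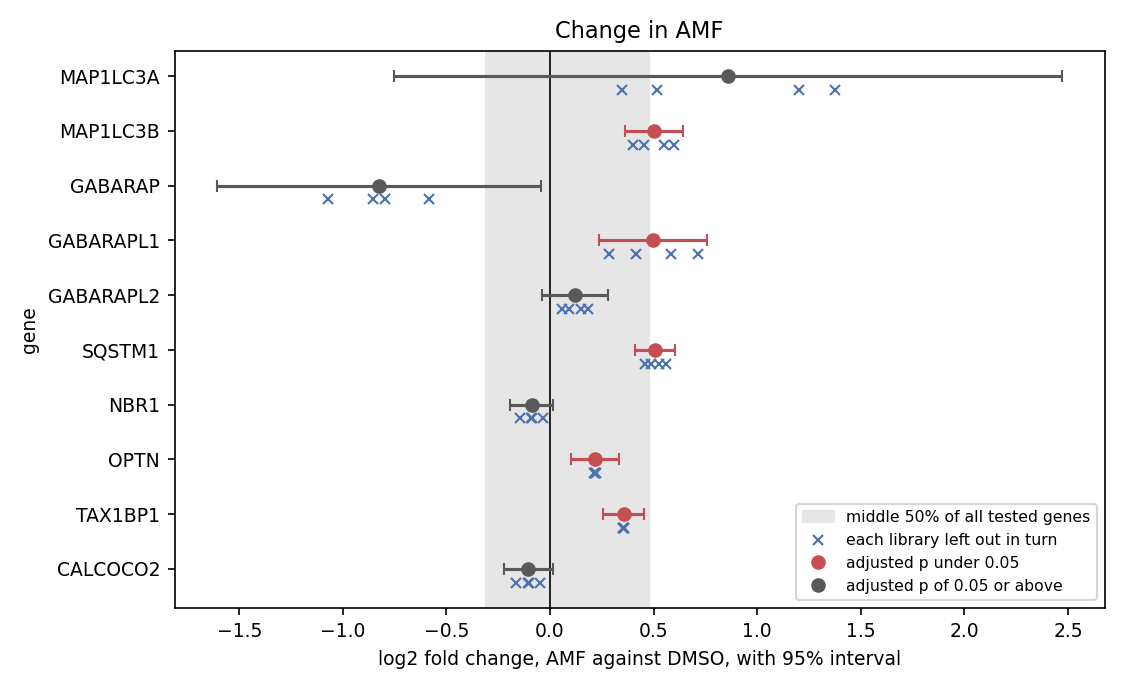
Log2 fold changes of the 10 genes with 95% limma intervals (red, adjusted p under 0.05; grey, not passed), and as blue crosses the change with each library left out. The grey band is the middle 50% of all tested genes, from -0.31 to 0.48, low-count genes included. The values of MAP1LC3B, GABARAPL1 and SQSTM1 lie just above it, with MAP1LC3A further above at 0.86 and GABARAP below at -0.83. For tested genes whose mean reached 100, the middle 50% is narrower, from -0.27 to 0.19 (not drawn).

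Among the receptors, SQSTM1 had both the highest level and the largest rise. Its protein p62 forms filaments that gather ubiquitin-marked cargo and is itself degraded with it. SQSTM1 had 6385 and 6848 normalized counts in DMSO and 9531 and 9279 in AMF. The groups stood far apart against a gap of 0.10 (log2) within DMSO and 0.04 within AMF. The mean went from 6616 ± 328 to 9405 ± 178, a log2 change of 0.51 (SE 0.0448, limma adjusted p = 7.08e-07), or 42.2% more. Of all tested genes, low-count genes included, 39.8% changed by more in either direction. The median size of a log2 change, whatever its direction, was 0.38 over all tested genes and 0.24 over those whose mean reached 100. The share of the latter that changed by more than SQSTM1 was not counted. Without AMF replicate 1 or 2 the limma call ended (changes 0.49 and 0.53, adjusted p = 0.123 and 0.124), and with voom it ended without AMF replicate 1 (adjusted p = 0.0515). In SQSTM1, 20.7% of exon bases overlap MRNIP and 1.37% MGAT4B, both on the opposite strand. MRNIP, listed under its older symbol C5orf45, had 925 ± 49.0 in DMSO and 849 ± 20.1 in AMF. MGAT4B rose with SQSTM1, from 5844 ± 101 to 7517 ± 97.2. The part of the bases shared with either neighbour in the SQSTM1 counts was not tested.

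TAX1BP1 rose as well, with little spread between its libraries. Its protein links ubiquitin-marked aggregates to the autophagy machinery and also restrains NF-kB signalling. TAX1BP1 had 3471 and 3460 normalized counts in DMSO and 4422 and 4442 in AMF, so the groups were well separated. The change was 0.35 (SE 0.0453, limma adjusted p = 2.57e-05), or 27.9% more. It stayed between 0.34 and 0.38 in every alternative run, although the limma call ended without AMF replicate 1 or 2 (adjusted p = 0.0968 and 0.106) while voom kept it. Exon bases overlapping JAZF1 on the opposite strand made up 4.53%, and JAZF1 had no reads in DMSO and 4.48 ± 2.40 normalized counts in AMF.

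OPTN, the receptor for damaged mitochondria and bacteria that the kinase TBK1 activates, had 1607 and 1601 normalized counts in DMSO and 1865 and 1864 in AMF. Replicates agreed to within 0.01 on the log2 scale, and the groups did not overlap. The change was smaller, 0.22 (SE 0.0551, limma adjusted p = 0.00697), or 16.2% more. Its size hardly moved with any library left out (0.20 to 0.24 over all alternatives), but the limma call ended without DMSO replicate 1 or 2 (adjusted p = 0.0602 and 0.0636) and without AMF replicate 1 or 2 (0.12 and 0.125). With voom it ended without AMF replicate 1 or 2 (0.0952 and 0.0918).

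NBR1 and CALCOCO2 did not rise with the other receptors. NBR1, the receptor that works with p62 in aggregates and also in the turnover of peroxisomes, had 4441 and 4783 normalized counts in DMSO and 4335 and 4331 in AMF. CALCOCO2, which encodes NDP52, the receptor for invading bacteria and damaged mitochondria, had 2401 and 2604 in DMSO and 2328 and 2320 in AMF. In each, the AMF pair lay just below both DMSO libraries, and most of the spread came from DMSO replicate 2. The log2 change was -0.09 for NBR1 (95% interval -0.19 to 0.02, limma adjusted p = 0.191). For CALCOCO2 it was -0.11 (95% interval -0.22 to 0.01, limma adjusted p = 0.172). Without DMSO replicate 1, voom called both lower (-0.14, adjusted p = 0.0101, and -0.16, adjusted p = 0.0250), and limma did not. Without DMSO replicate 2 the limma change shrank to -0.036 for NBR1 and -0.047 for CALCOCO2. In NBR1, 5.51% of exon bases overlap the non-coding gene AC060780.1, and in CALCOCO2 0%.

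Per kilobase of annotated exon, MAP1LC3B stood below NBR1 in DMSO and above it in AMF. In DMSO, SQSTM1 led with 864 ± 42.8 normalized counts per kilobase, followed by NBR1 with 549 ± 28.8 and MAP1LC3B with 397 ± 38.5. TAX1BP1 (378 ± 0.837), OPTN (312 ± 0.940), CALCOCO2 (300.3 ± 17.2), GABARAPL2 (259 ± 7.01), GABARAPL1 (99.4 ± 20.8), GABARAP (13.2 ± 3.23) and MAP1LC3A (1.16 ± 0.835) followed. The libraries of MAP1LC3B and TAX1BP1 overlapped, as did those of OPTN and CALCOCO2. The other neighbours in this order did not overlap. In AMF, SQSTM1 reached 1229 ± 23.3 per kilobase and MAP1LC3B, at 561 ± 26.7, stood above NBR1 at 516 ± 0.395. GABARAPL2 (282 ± 17.7) and CALCOCO2 (279 ± 0.679) overlapped there. These levels use the union of all annotated exons, and the order depends on that choice. With the longest transcript as the length, SQSTM1 again led, at 2216 per kilobase in DMSO and 3150 in AMF. TAX1BP1 (862 in DMSO and 1102 in AMF) then stood above MAP1LC3B (684 and 966) in both groups and above NBR1 (991 and 931) in AMF. CALCOCO2 (680 and 631) then stood above OPTN (456 and 529.5).

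Summed per kilobase, the 5 ATG8 genes came to 725 and 815 in DMSO and 952 and 1030 in AMF, a ratio of 1.29 between the group means. The 5 receptors came to 2342 and 2465 in DMSO and 2886 and 2853 in AMF, a ratio of 1.19. Both sums were higher in both AMF libraries, but an exact two-sided permutation test of 2 against 2 libraries gave p = 0.333, the smallest it can give. Within the ATG8 sum, the share of MAP1LC3B was 51.1% and 52.1% in DMSO and 56.9% and 56.3% in AMF. That of GABARAPL2 was 35.1% and 32.4% in DMSO and 28.3% and 28.6% in AMF, and that of GABARAPL1 overlapped between the groups (11.7% and 14%, then 13.8% and 14.3%). Within the receptor sum, the share of SQSTM1 was 35.6% and 36.3% in DMSO and 43.1% and 42.5% in AMF. The shares of NBR1 (22.6% and 23.1%, then 17.9% and 18.1%) and CALCOCO2 (12.3% and 12.7%, then 9.68% and 9.76%) were lower in both AMF libraries. That of OPTN overlapped, between 12.6% and 13.4% in all libraries. All shares use the union of annotated exons as the length and depend on that choice. Any GABARAP reads dropped for overlap with other genes are missing from the ATG8 sum. Shares of a sum are not independent of each other, and the exact p is 0.333 for each share whose groups did not overlap and 0.667 for GABARAPL1, OPTN and MAP1LC3A.

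**Figure D3:**
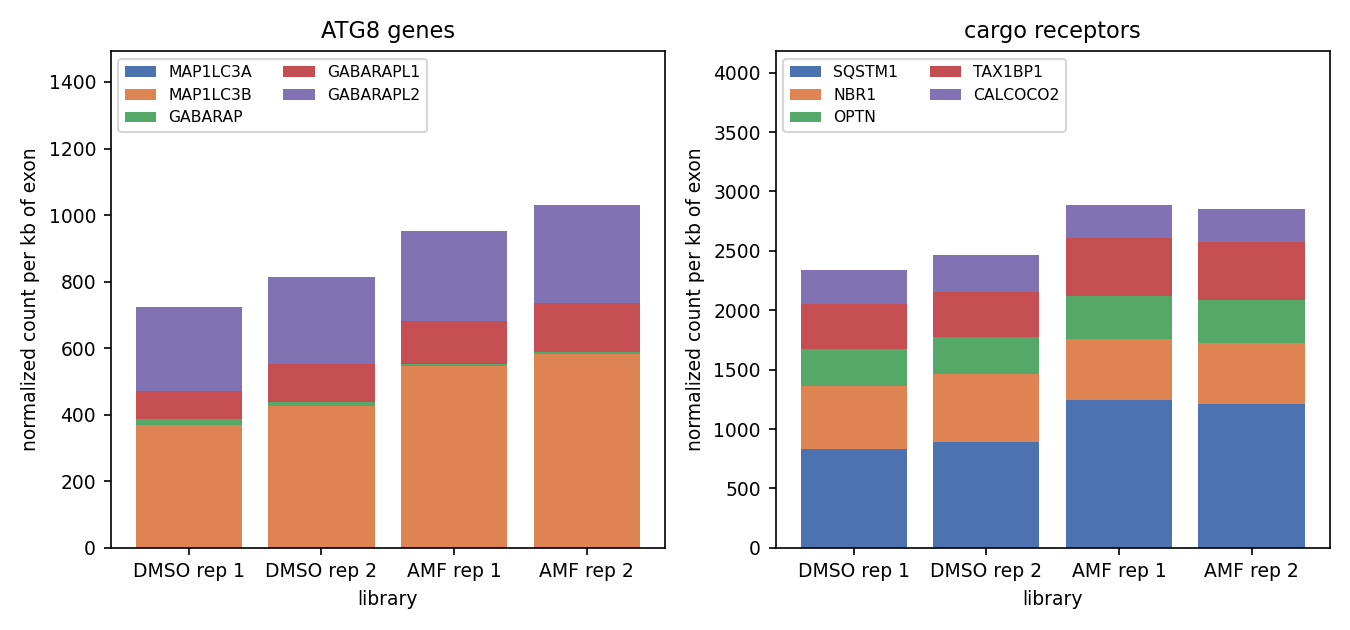
Stacked normalized counts per kilobase of exon (union of all annotated exons) for the 5 ATG8 genes (left) and the 5 cargo receptors (right) in each library, with bars starting at 0. MAP1LC3B makes up 51.1% to 56.9% of the ATG8 bars, and SQSTM1 35.6% of the receptor bar in DMSO replicate 1 and 43.1% in AMF replicate 1.

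The genes whose pattern over the 4 libraries was nearest to that of SQSTM1, by Euclidean distance of log2(normalized count + 1) centred on the gene mean among the 11137 genes at a mean of 100 or more, were NIT2 (distance 0.0165, change 0.51), ATHL1 (0.0169, change 0.50) and MAPK8IP2 (0.0182, change 0.49). For MAP1LC3B they were MKKS (0.0212, change 0.49), SPATA2 (0.0285, change 0.49) and PLCE1 (0.0382, change 0.48). NIT2 is an amidase, ATHL1 a collagen glucosidase and MKKS a chaperonin-like protein. With 4 libraries in 2 groups, any gene that rose by about the same amount with a like gap in DMSO comes near.

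Of 12 genes that attach ATG8 proteins to lipid or process them, 5 rose, 0 fell and 7 did not pass, with a median change of 0.07. At an unadjusted p under 0.05, 6 were higher and 0 lower, and voom called 5 and 0. Of all tested genes whose mean reached 100, 23.6% were higher and 31.1% lower, the shares to set beside this list and the next. The list was led by ATG4A, a protease that prefers the GABARAP subfamily, which went from 154 ± 15.0 to 271 ± 0.877 (0.81, SE 0.127, limma adjusted p = 1.67e-04). Of 21 tested receptors for whole organelles and other cargo, 4 rose, 9 fell and 8 did not pass, with a median of -0.18. BNIP3L, which encodes the mitochondrial receptor NIX, fell from 1673 ± 150 to 649 ± 29 (-1.36, SE 0.0747, limma adjusted p = 5.78e-09). BCL2L13, another mitochondrial receptor, rose from 745 ± 182 to 1092 ± 107 (0.57), and by 0.32 without DMSO replicate 1, where the limma call ended. In DMSO it had 617 and 874, a gap of about the size of its change.

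Among 17 tested kinases, ligases and binding partners that act on the receptors, 4 rose, 5 fell and 8 did not pass, with a median of 0.01. These counts lie near the 23.6% higher and 31.1% lower among all tested genes whose mean reached 100. RB1CC1, whose protein FIP200 is drawn to cargo by p62, rose from 2155 ± 50 to 3561 ± 39.5 (0.72, limma adjusted p = 5.67e-08), and the ubiquitin ligase NEDD4L rose by 0.35. IKBKE, a kinase related to TBK1, fell from 402 ± 25.4 to 211 ± 18.4 (-0.93, limma adjusted p = 1.42e-05), and ULK1, the autophagy-starting kinase, fell by 0.38. Chosen after its values were seen, TBK1, which phosphorylates OPTN and p62, went from 788 ± 39.6 to 986 ± 17.5 (0.32, limma adjusted p = 0.00242). KEAP1, the NRF2 adaptor that p62 binds, was chosen likewise and fell from 2623 ± 6.51 to 2289 ± 77.3 (-0.20, limma adjusted p = 0.00907).

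Of 13 transcription factors on a chosen list, 1 rose, 9 fell and 3 did not pass, with a median of -0.57. Whether each of them acts on the members was not tested. Over all tested genes 16.2% were lower, and 31.1% of those whose mean reached 100. TFEB, an activator of autophagy and lysosome genes, fell from 417 ± 5.74 to 231 ± 50.8 (-0.87, limma adjusted p = 1.30e-04), and the stress factor DDIT3 fell by 0.80. ZKSCAN3, a repressor of autophagy genes, was the member that rose (0.37, limma adjusted p = 0.0215). NFE2L2, which encodes NRF2 and was named after its values were seen, fell from 7116 ± 183 to 5832 ± 13.4 (-0.29, limma adjusted p = 9.74e-05).

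Of 23 genes for the transport and fusion of ATG8-bearing membranes, 6 rose, 6 fell and 11 did not pass, with a median of -0.02. Both counts are near the shares of all tested genes whose mean reached 100, 23.6% higher and 31.1% lower. The SNARE gene YKT6 rose by 0.36 and the scaffold gene MAPK8IP1, whose protein binds LC3, fell by 0.71. The members and lists share these 4 libraries, and differences between lists were not tested. All limma calls on these genes ended without AMF replicate 1 or 2, where voom kept BNIP3L and RB1CC1 in both cases, TFEB and YKT6 without replicate 1, NEDD4L without replicate 2 and no other named here. The limma calls on TFEB, ZKSCAN3 and KEAP1 also ended without either DMSO library, that on YKT6 without DMSO replicate 1, and that on TBK1 without DMSO replicate 2.

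**Figure D4:**
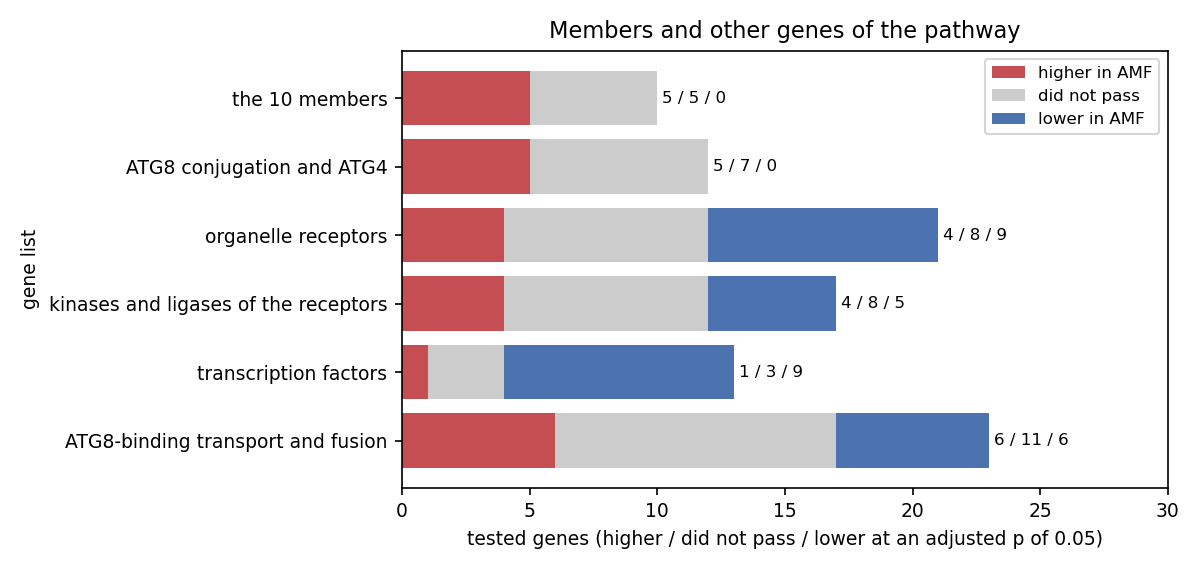
Tested genes of the members and 5 pathway lists that were higher (red), did not pass (grey) or were lower (blue) in AMF at an adjusted p of 0.05, with the counts in that order beside each bar. The 10 members and the 12 genes of ATG8 conjugation have no gene lower, and the transcription factors have 9 of 13.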

How the data were processed

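RNA of HepG2 cells was sequenced after poly(A) selection without strand, per the labels' protocols. Per the submitters' processing notes, the tools were STAR 2.7.0 and featureCounts with hg19. The annotation and the scaling are not given in the sources used. Log2 values deposited by the authors covered 30863 genes in 4 libraries, with no column of another sample. The values had a common lower bound of 6.01 and the form of a variance-stabilizing transformation, which is read from the values. Its inverse gave normalized counts, of which 100% in each library were whole reads within 0.01 after division by the worth of 1 read.

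The members and lists were chosen with earlier results of these data known. The design assumed log2 values, so limma-trend (limma 3.58.1, R 4.3.3) was run on log2(normalized count + 1) over the 23828 genes whose mean reached 1, with the group as the sole term. On this scale a fold change is too small for low genes. All 10 members were named, and from each list the largest rise and fall (2 of each for the kinases and the transcription factors) past the threshold, where the mean reached 100 and groups did not overlap. The result of 1 gene list is not reported here. Older symbols were matched for 6 list genes. Exon lengths, overlaps and shared words of 50 bases came from GENCODE release 29 on GRCh38, another build than the hg19 of the counts. The exons that were counted may therefore differ from those used for lengths, levels per kilobase, shares and overlaps. Scripts were tested on simulated data. Alternatives were a pseudocount of 0.1, other filters, the deposited values, voom, library totals, a replicate block and each library left out. Figures were drawn with matplotlib 3.10.9.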

Additional observations from a re-analysis of the deposited data

How the results depend on the processing

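With all 4 libraries kept, every alternative (a pseudocount of 0.1, no filter, a mean of at least 10, the deposited log2 values, voom, library totals as scaling) left 5 members higher and 0 lower, and no member changed its call or direction in 69 values. MAP1LC3A was not tested at a mean of at least 10. The labels tie the replicate numbers to no shared culture or day. Same-numbered deviations correlated at 0.0238 over 11137 genes, which cannot show whether the libraries were made as pairs. Pairing is therefore unknown, and the main fit did not use the numbers. A fit with the replicate number as a block called 5 members higher and 0 lower and 4049 genes higher and 4108 lower. With 1 library left out, limma-trend called 0 to 4 members higher and 0 lower and voom 1 to 5 higher and 0 to 2 lower. Over all genes limma-trend then called 0 to 1753 higher and 0 to 1780 lower, and voom 636 to 3043 higher and 679 to 3733 lower (667 and 712 without AMF replicate 1). The counts of 0 came without AMF replicate 1 or 2, when 4 and 3 members and 6575 and 6387 genes still had an unadjusted p under 0.05 and the prior degrees of freedom fell from 11.9 to 0.995 and 1. There the remaining AMF library is assumed to vary like DMSO. Of the single-member values with a library left out, 57 kept their call, 21 lost it, 2 gained it and 0 reversed. The summed levels (log2 ratio 0.36 for ATG8 genes and 0.26 for receptors) ran from 0.28 to 0.45 and from 0.22 to 0.29 over all alternatives. List counts moved by over 1.5 times in 3 values with all libraries (95 stayed within) and in 67 with a library left out (45 stayed within), of which 64 were lower. Few reads limit the results of MAP1LC3A and GABARAP, whose intervals cover counting error only. The reason for the few reads of GABARAP was not tested.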
